A study of Ovis aries with 48 samples.

Results

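The comparison described here sets 4 female sheep exposed to excess testosterone before birth against 4 control sheep, with 1 value per animal for each small RNA. Each sheep gave subcutaneous, visceral, epicardial and perirenal fat, so the 8 animals account for 32 of the 48 libraries of the series. Mothers of the exposed animals, called prenatal T sheep, were injected intramuscularly with 100 mg of testosterone propionate in corn oil, about 1.2 mg per kg, repeatedly from gestational day 30 to 90. The labels do not say what the mothers of the control animals of this cohort were given, and they state no age at sampling. Both groups were kept together on a similar maintenance diet, per the labels. For each feature, log2 of the deposited value plus 1 was taken, the mean of the 8 libraries of a depot was subtracted, and the 4 centred values of a sheep were averaged. A centred value of 0 is therefore the mean of the cohort, and a difference of 1 between the groups is a doubling on this scale. The 4 depots of a sheep are not replicates of the treatment, and the spread that the tests use is the spread between animals. In the limma fits the spread of a feature is drawn toward that of other features of its class.

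Testosterone given to pregnant ewes crosses into the fetus and is a model of prenatal androgen excess, in which female offspring develop reproductive and metabolic disturbances. MicroRNAs are short RNAs that lower the output of messenger RNAs to which they pair. In fat they act on the formation of adipocytes, insulin signalling and inflammation. Families such as let-7 share the same pairing sequence, and clusters such as the one in the imprinted DLK1-DIO3 region are processed from long transcripts of 1 parental chromosome. Small nucleolar RNAs (snoRNAs) guide chemical modification of other RNAs, and small nuclear RNAs (snRNAs) form the core of the spliceosome.

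The 32 libraries held 260804 to 1742991 reads in the 4 RNA classes (median 764432), and the 4 libraries of a sheep together held 2811681 to 3920425. MicroRNAs took 83.9% to 92.8% of the reads of a library and long noncoding RNAs (lncRNAs) 5.99% to 14.1%. snoRNAs took 0.277% to 2.42% and snRNAs 0.0595% to 0.927%. Of 4920 features listed, 441 had a mean deposited value of at least 5 over the 32 libraries and were tested, namely 80 microRNAs, 169 snoRNAs, 34 snRNAs and 158 lncRNAs. Library numbers in the labels ran from 17 to 48, called early here, and from 98 upward, called later. Later libraries numbered 3, 1, 1 and 3 in control sheep 098, 131, 132 and 201, and 2, 1, 2 and 0 in prenatal T sheep 48, 185, 233 and 255. By depot, later numbers were carried by 4 of 4 control and 2 of 4 prenatal T libraries in epicardial fat, and by 1 of 4 and 0 of 4 in both subcutaneous and perirenal fat. In visceral fat they were 2 of 4 and 3 of 4. Early libraries alone therefore hold no epicardial comparison, and later ones alone no subcutaneous or perirenal comparison. Values given for the 2 sets differ in depots as well as in library number.

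Averaged over the depots, microRNAs of the imprinted DLK1-DIO3 cluster were among those with higher means in prenatal T sheep, led by MIR369, MIR411A and MIR3959. Several abundant microRNAs had lower means, among them MIR106B, MIR150 and MIRLET7A to MIRLET7D of the let-7 family. No feature passed the test. With limma on the 8 sheep averages and Benjamini-Hochberg adjustment within each RNA class, 0 of 441 features were called at an adjusted p under 0.05 (0% called), and the smallest adjusted p was 0.322. At an unadjusted p under 0.05 there were 30 features, or 6.8% of those tested, 20 higher (4.54%) and 10 lower (2.27%) in prenatal T sheep, where 22.05 would be reached by chance. Scaled to equal reads over the 4 classes, 39 features reached it, 16 higher and 23 lower. Among microRNAs alone 11 of 80 reached it, or 13.8%, 6 higher and 5 lower. The values of the 4 prenatal T sheep did not overlap those of the 4 control sheep for 12 features, or 2.72%. Of these, 4 were microRNAs (5% of the class). Random placement of 4 against 4 sheep leaves no overlap in a fraction of 0.0286. Reads summed over the depots of a sheep are not centred on the depot, so each depot weighs by its reads. The perirenal library held 1742991 of the 3008164 reads of prenatal T sheep 48 and 283463 of the 2960440 of control sheep 098. Fits on such sums therefore mix depot make-up with treatment. On these sums edgeR called 0 features (40 at an unadjusted p under 0.05). DESeq2 on the same sums called 9 (2.04%; 50 at an unadjusted p under 0.05), namely MIR369, MIR411A, MIR379, MIR495, MIR3959, MIR200A and MIR218A higher and MIR106B and the lncRNA LOC114113974 lower.

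**Figure D1:**
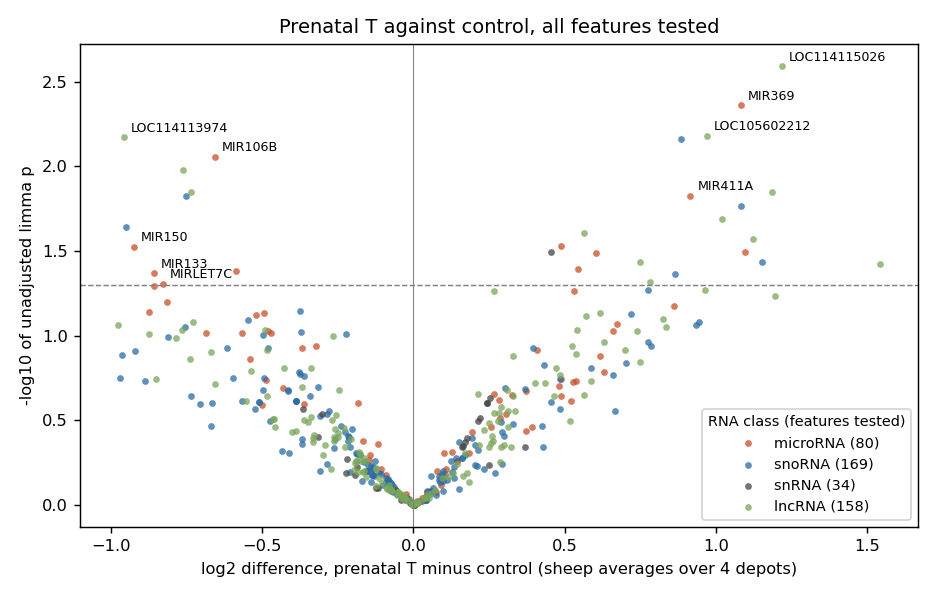
Difference between prenatal T and control sheep (x axis, log2, 1 value per sheep over 4 depots) against -log10 of the unadjusted limma p (y axis) for 441 features, coloured by RNA class. The dashed line stands at an unadjusted p of 0.05, which 30 features lie above; none passed the adjusted threshold.

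The averaging narrowed the spread between animals. The median SD of a feature within a group was 0.72 in a single depot and 0.41 for the sheep averages (median ratio 0.58). The median half-width of the 95% interval of a difference was 0.65 on the log2 scale, so that differences smaller than this were not resolved for a typical feature. Depots of 1 sheep were only weakly alike after depot and treatment were accounted for: the correlation estimated across features was 0.17 for microRNAs, 0.10 for snoRNAs, 0.12 for snRNAs and 0.09 for lncRNAs. The mean difference had the same sign in all 4 depots for 93 features (21.1%), 45 higher (10.2%) and 48 lower (10.9%). Among microRNAs this was so for 28 of 80 (35%), 11 higher (13.8%) and 17 lower (21.2%).

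Animals contributed unequally. Prenatal T sheep 255 lay farthest from the cohort mean. The SD of its averaged values over the 80 microRNAs was 0.85, against 0.23 to 0.51 in the other 7 sheep, and it was also the highest of the 8 for snoRNAs (0.80), snRNAs (0.59) and lncRNAs (0.83). In sheep 255 the microRNAs held 90.9% of reads and the lncRNAs 8.26%, as means over its 4 libraries, while in the other sheep they held 84.9% to 87.4% and at least 11.3%. Without sheep 255, 0 features were called and 13 reached an unadjusted p under 0.05 with limma, 12 of them among the 30. Without control sheep 098 there were 0 called and 14 at an unadjusted p under 0.05. That count was higher without control sheep 132 (56), prenatal T sheep 48 (57) or prenatal T sheep 185 (47). Without sheep 132, 1 feature was called, the snRNA LOC114115462.

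MIR369 had the smallest p among the microRNAs. It lies in LOC105606646, a lncRNA gene of the DLK1-DIO3 cluster in the RefSeq annotation. The centred values of MIR369 were -1.07, -0.80, 0.09 and -0.39 in control sheep 098, 131, 132 and 201, and 0.19, 0.44, 0.76 and 0.78 in prenatal T sheep 48, 185, 233 and 255. All 4 prenatal T sheep were above all 4 control sheep, with control sheep 132 nearest to them. The difference was 1.08 (SE 0.30, limma adjusted p = 0.322), with mean deposited values of a sheep from 11.9 to 28.3 normalised reads in controls and 26.6 to 62.3 in prenatal T. It was 1.55 in subcutaneous, 1.21 in visceral and 1.43 in perirenal fat, and 0.14 in epicardial fat. The level was low in visceral and subcutaneous libraries, where it lay between 1.1 and 18.7 normalised reads, so that the pseudocount of 1 bears on these values. Among early libraries alone the difference was 1.23 and among later libraries alone 0.58, but these sets cover different depots.

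MIR411A and MIR379 stand next to each other at another point of the same cluster. Centred values of MIR411A were -0.89, -0.64, -0.09 and -0.20 in control sheep 098, 131, 132 and 201, and -0.12, 0.04, 0.80 and 1.11 in prenatal T sheep 48, 185, 233 and 255. Sheep 185, 233 and 255 were above every control, and sheep 48 lay within the control range. The difference was 0.91 (SE 0.32, limma adjusted p = 0.322), above 0 in each depot, from 0.65 in epicardial to 1.19 in perirenal fat. MIR379 had 0.61 (SE 0.25, limma adjusted p = 0.322), from 0.18 in subcutaneous to 1.14 in perirenal fat, and its groups overlapped. In the perirenal library of sheep 255, MIR379 reached 2367 and MIR411A 864 normalised reads, against at most 1298 and 265 in the 7 other perirenal libraries. Without that library the differences were 0.51 for MIR379 and 0.79 for MIR411A, an alternative chosen after seeing the data.

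MIR3959 and MIR495, also of the cluster, had groups that did not overlap. Centred values of MIR3959 were -1.83, -0.21, 0.05 and -0.21 in control sheep 098, 131, 132 and 201, and 0.13, 0.13, 0.47 and 1.47 in prenatal T sheep 48, 185, 233 and 255. Control sheep 098 stood low and prenatal T sheep 255 high. The difference was 1.10 (SE 0.45, limma adjusted p = 0.322), 0.67 without control sheep 098 and 0.79 without sheep 255. MIR495 differed by 0.54 (SE 0.23, limma adjusted p = 0.322), with control sheep from -0.46 to -0.07 and prenatal T sheep from 0.001 to 0.51. In subcutaneous fat its difference was -0.30, while the other depots gave 0.37 to 1.15.

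**Figure D2:**
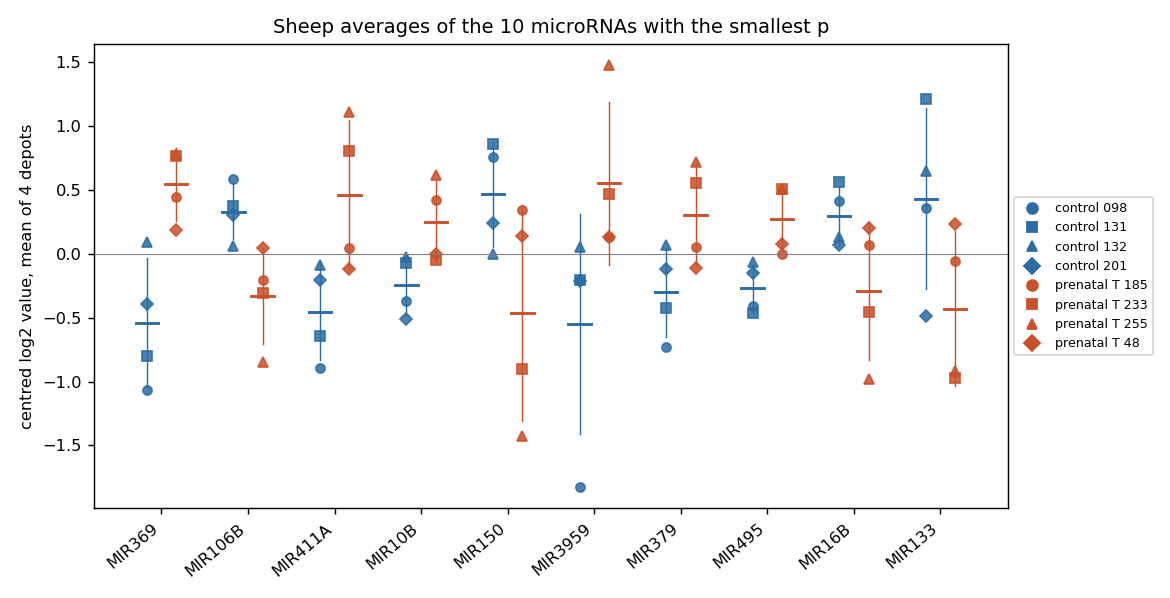
Centred log2 value of each sheep, averaged over 4 depots (y axis), for the 10 microRNAs with the smallest p (x axis); controls are blue and prenatal T sheep red, bars are means and thin lines 1 SD (n = 4). The groups do not overlap for MIR369, MIR106B, MIR3959 and MIR495, and prenatal T sheep 255 is at an extreme for most.

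The DLK1-DIO3 list held 52 microRNAs that the tables report, of which 30 were tested. The cluster is expressed from the maternal chromosome and is known for roles in fetal growth and muscle and fat tissue. Of the 30, 21 had a difference above 0 and 9 below, where 60% of all tested microRNAs were above 0. At an unadjusted p under 0.05 there were 5 higher (MIR369, MIR411A, MIR379, MIR495 and MIR3959) and 0 lower, against 6 higher (7.5%) and 5 lower (6.25%) among all microRNAs, and 0 were called. The median difference was 0.19, against 0.05 over the 80 microRNAs. Groups did not overlap for 3 of the 30, against 4 of all 80 microRNAs (5%), which include these 3. The other 22 microRNAs of the list had mean values below the minimum.

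Members of the cluster differed among themselves. MIR127, its most abundant member, differed by 0.05 (SE 0.22), with control sheep from -0.41 to 0.34 and prenatal T sheep from -0.31 to 0.48. MIR493 had 0.18. MIR433, MIR485 and MIR543, chosen after their values were seen, had -0.49, -0.54 and -0.50 (SE 0.34, 0.34 and 0.42). MIR3958, MIR494 and MIR655, also chosen after their values were seen, had higher mean deposited values in prenatal T sheep. These were 91.4, 47.7 and 21.1 normalised reads, against 46.6, 25.2 and 10.4 in control sheep, with sheep 255 highest for each. By depot the median over the 30 was -0.02 in subcutaneous, 0.26 in visceral, -0.07 in epicardial and 0.59 in perirenal fat. By sheep it was -0.01, -0.32, -0.09 and 0.15 in control sheep 098, 131, 132 and 201, and -0.03, -0.02, 0.44 and 0.23 in prenatal T sheep 48, 185, 233 and 255. Sheep 233 and 255 thus stood above the controls for the list as a whole and sheep 48 and 185 did not. With sheep 233 left out, the median was 0.09 and 16 of 30 were above 0. It was 0.10 without control sheep 132, 0.12 without control sheep 131 and 0.12 without the perirenal library of sheep 255.

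**Figure D3:**
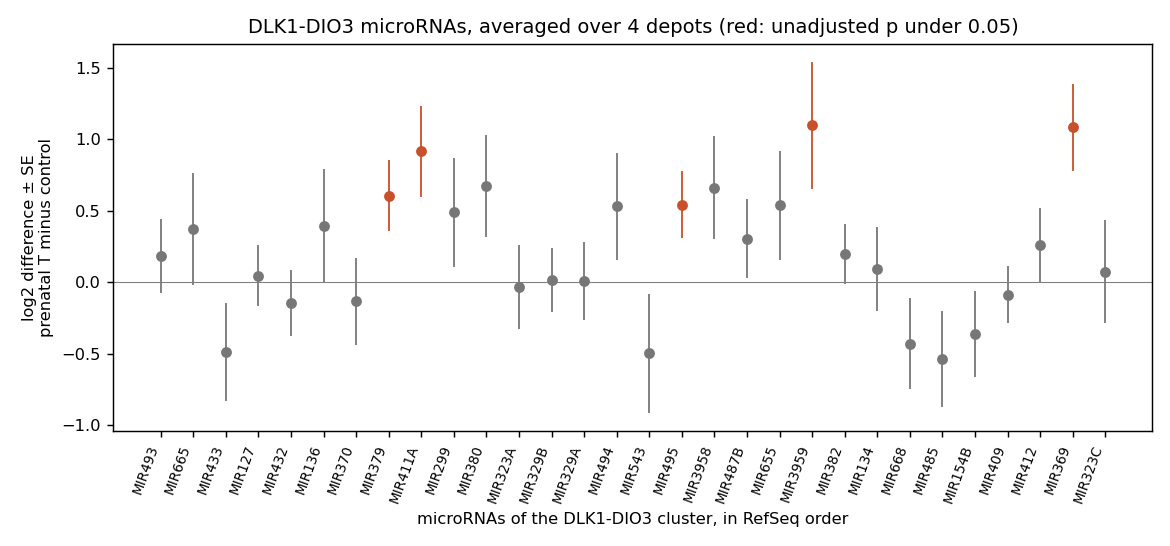
Difference between prenatal T and control sheep (y axis, log2, error bars 1 SE, n = 4 and 4 sheep) for the 30 tested microRNAs of the DLK1-DIO3 list, in their order along the RefSeq annotation (x axis). The 5 with an unadjusted p under 0.05 (red) lie above 0 at separate points of the cluster, with MIR379 and MIR411A side by side. Stretches between them hold differences on both sides of 0, with MIR543 and MIR485 among those below.

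The host transcript and the snoRNAs of the region were read from the same libraries. LOC105606646 itself had a difference of 0.53, and its share of lncRNA reads was 0.619% ± 0.139 in control and 0.826% ± 0.356 in prenatal T sheep (SD, n = 4 each; exact permutation p = 0.371, adjusted p = 0.446). That difference of 0.208 percentage points was 0.0845 without sheep 255, 0.131 without sheep 233 and 0.331 without sheep 185. MicroRNAs and snoRNAs that lie inside LOC105606646 in the annotation were counted separately, and whether they share reads with this transcript was not tested. Of 33 snoRNAs annotated in it, 8 were tested, 6 had a difference above 0 (42% of all snoRNAs did) and 0 reached an unadjusted p under 0.05. Their median was 0.36, against -0.08 for all snoRNAs. It was 0.09 (5 of 8 above 0) without control sheep 131, 0.16 without prenatal T sheep 233 and 0.61 without control sheep 201. Without visceral fat it was 0.01 and scaled over the 4 classes 0.03, each with 4 of 8 above 0. This group is one that earlier results of these data had brought up.

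The let-7 family, abundant in differentiated tissue and known for restraining growth and insulin signalling, split into members with lower means and members near 0. MIRLET7A, MIRLET7B, MIRLET7C and MIRLET7D differed by -0.82, -0.87, -0.83 and -0.86 (SE 0.39, 0.44, 0.38 and 0.39), each below 0 in all 4 depots. Without sheep 255 they differed by -0.49, -0.54, -0.49 and -0.49. MIRLET7F, MIRLET7G and MIRLET7I differed by 0.11, -0.14 and 0.11 (SE 0.23, 0.21 and 0.21). MIRLET7C alone reached an unadjusted p under 0.05 (0.0494, limma adjusted p = 0.322). The median of the 7 was -0.82, against 0.05 over all microRNAs, and -0.49 without sheep 255. Members of this family are near-identical in sequence, so that reads can be divided unevenly between them by the counting.

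Centred values of MIRLET7C were 0.64, 0.76, -0.13 and 0.38 in control sheep 098, 131, 132 and 201, and 0.25, 0.13, -0.59 and -1.44 in prenatal T sheep 48, 185, 233 and 255. Sheep 233 and 255 lay below every control, while sheep 48 and 185 lay within the control range, above control sheep 132. In perirenal fat MIRLET7C stood at 7497 normalised reads in sheep 255 and at 27026 to 57102 in the 3 other prenatal T sheep, against 45945 to 135885 in controls. Without sheep 255 the difference was -0.49, and without its perirenal library -0.72. Among early libraries alone it was -0.87 and among later libraries alone -0.45, again over different depots.

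**Figure D4:**
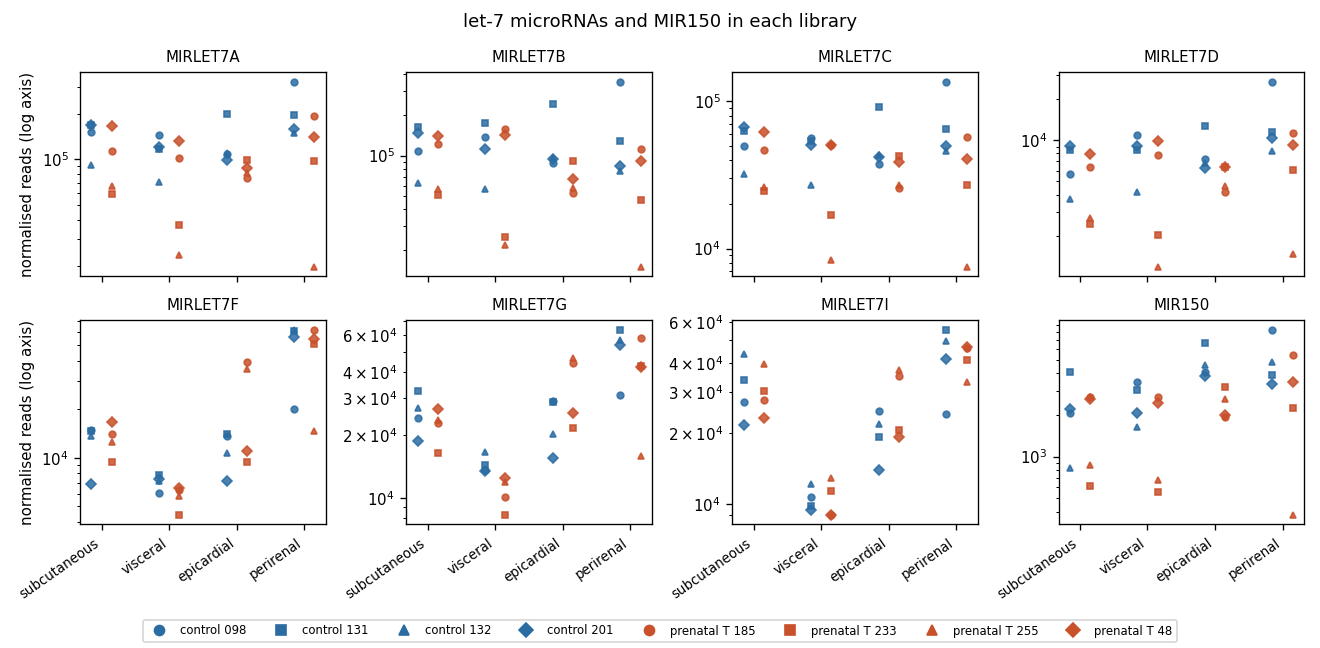
Normalised reads (y axes, log scale) of the 7 let-7 microRNAs and MIR150 in each library, by depot (x axis), with controls in blue, prenatal T sheep in red and 1 symbol per sheep. Prenatal T sheep 255 and 233 have the lowest visceral values of MIRLET7A to MIRLET7D and of MIR150, whereas for MIRLET7I sheep 255 has the highest visceral value.

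As a share of microRNA reads, the let-7 family held 62.0%, 62.2%, 49.7% and 58.0% in control sheep 098, 131, 132 and 201, and 56.1%, 54.5%, 44.1% and 36.6% in prenatal T sheep 48, 185, 233 and 255. Control sheep 132 lay below prenatal T sheep 48 and 185, and the groups overlapped. The mean was 58.0% ± 5.85 in controls and 47.8% ± 9.19 in prenatal T (SD, n = 4 each), a difference of -10.1 percentage points (exact two-sided permutation p = 0.114, adjusted p = 0.277 over 18 shares). Without sheep 255 it was -6.40 points. With depot as a term it was -8.14 points among early and -9.25 among later libraries. A scaling to equal microRNA reads moved the median difference of all microRNAs from 0.05 to 0.37. On that scale the let-7 median was -0.50 and the DLK1-DIO3 median 0.51. That scaling moves all microRNAs of a library by the same factor.

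MIR106B, which lies in MCM7 and regulates cell cycle genes, was the microRNA with the smallest p among those with lower means. Values of MIR106B, centred, were 0.59, 0.37, 0.06 and 0.30 in control sheep 098, 131, 132 and 201, and 0.04, -0.20, -0.30 and -0.85 in prenatal T sheep 48, 185, 233 and 255. All 4 prenatal T sheep were below all 4 controls, with sheep 48 close to control sheep 132. The difference was -0.66 (SE 0.21, limma adjusted p = 0.322), with sheep means from 1359 to 2161 normalised reads in controls and from 806 to 1327 in prenatal T. It was below 0 in each depot, from -0.41 in subcutaneous to -1.11 in perirenal fat. MIR25 of the same transcript, chosen after its value was seen, differed by -0.49 (SE 0.25), and by -0.29 without sheep 255. MIR16B, in SMC4 and known for slowing the cell cycle, differed by -0.59 (SE 0.25, limma adjusted p = 0.322), with overlapping groups, and by -0.36 without sheep 255.

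MIR10B, which lies in HOXD4 among the genes that pattern the body axis, differed by 0.49 (SE 0.20, limma adjusted p = 0.322). Its centred values were -0.37, -0.07, -0.02 and -0.51 in control sheep 098, 131, 132 and 201, and -0.002, 0.42, -0.05 and 0.61 in prenatal T sheep 48, 185, 233 and 255. Sheep 185 and 255 were well above the controls, sheep 48 was just above the highest of them, and sheep 233 lay within their range. In epicardial fat, sheep 185 and 255 had 1445 and 2330 normalised reads, and the other 6 sheep had 323 to 783. Those 2 libraries were of the early set and the other 6 epicardial libraries of the later set. Among early libraries alone, which hold no epicardial comparison, the difference of MIR10B was -0.03, and among later libraries alone 0.41. It was 0.30 with the number of later libraries of a sheep as a covariate and 0.27 with a library set term over the 32 libraries. MIR10A, the other HOX microRNA tested, had 0.27 (SE 0.21).

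Lists of microRNAs with known roles in fat gave small or mixed differences, with 0 called in each. Among 14 tested microRNAs that promote adipocyte formation, 8 had a difference above 0 and the median was 0.02. MIR143, an abundant member, had 0.37 (SE 0.28), MIR26A had -0.11 (SE 0.21) and MIR148A had 0.52 (SE 0.42). Without sheep 255 MIR143 had 0.19 and MIR148A 0.17, and MIR148A had 0.84 without control sheep 132, 0.85 without sheep 48 and 0.34 without control sheep 098. The median of the 14 lay between -0.02 and 0.09 with each sheep left out in turn. Of those that oppose it, MIR27A had 0.10 (SE 0.14) and MIR221 -0.32 (SE 0.19). For insulin and glucose handling, 4 of 6 tested were above 0 with a median of 0.07. That median was -0.12 without epicardial fat and -0.16 among early libraries alone, each with 1 of 6 above 0. These are not separate checks, since the early libraries hold no epicardial control. In this list MIR103 and MIR29A had -0.12 and -0.03 (SE 0.15 and 0.14). MIR29B-1 and MIR29B-2 carried the same counts, so they are 1 measurement listed under both names.

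Of 4 tested microRNAs with roles in inflammation, 3 were below 0 and the median was -0.48, or -0.24 without sheep 255. Among later libraries alone the median was 0.10. MIR125B differed by -0.69 (SE 0.38) and the copies MIR181A-1 and MIR181A-2 by -0.47 and -0.48 (SE 0.26 each). Without sheep 255 these were -0.28, -0.24 and -0.24. The values of those copies were close in each sheep, and reads shared between them were not resolved. MIR21, which is raised in inflamed and fibrotic tissue, differed in the opposite direction by 0.63 (SE 0.42). Its centred values were -0.42, -0.79, 0.39 and -0.45 in control sheep 098, 131, 132 and 201, and -0.45, -0.48, 0.67 and 1.52 in prenatal T sheep 48, 185, 233 and 255. The groups overlapped, and sheep 255 stood highest, with 11899 normalised reads of MIR21 in perirenal fat where the 7 other libraries had 915 to 2002. Without sheep 255 the difference of MIR21 was 0.23. Among 5 tested microRNAs regulated by androgens in prostate cells, 3 were above 0 and the median was 0.10, or -0.05 with edgeR on summed reads. Of 5 tested for matrix and fibrosis, 4 were above 0 and the median was 0.14, with MIR199A at 0.41 (SE 0.24) and at 0.25 without sheep 255. The sign of this median turned without epicardial fat (-0.10, 2 of 5 above 0) and among early libraries alone (-0.06, 2 of 5). Here too the early libraries hold no epicardial control, so these checks are not separate.

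Markers of other cell types that a piece of fat can hold were read beside these lists. The tables hold noncoding RNAs, so the labelled tissue could not be checked against messenger RNAs of adipocytes. In bulk tissue, fewer cells of a type and less RNA per cell cannot be told apart. MIR150, a microRNA of mature lymphocytes, was the only tested marker of blood cells. It differed by -0.92 (SE 0.37, limma adjusted p = 0.322), by -0.82 among early and -0.84 among later libraries, and by -0.60 without sheep 255. It held 0.566%, 0.533%, 0.474% and 0.462% of microRNA reads in control sheep 098, 131, 132 and 201, and 0.394%, 0.448%, 0.299% and 0.229% in prenatal T sheep 48, 185, 233 and 255. Every prenatal T sheep was below every control for this share, but the centred log2 values of the groups overlapped. There, prenatal T sheep 48 and 185 were at 0.14 and 0.34, and control sheep 132 and 201 at -0.004 and 0.24. The share differed by -0.166 percentage points. Its exact two-sided permutation p was 0.0286, the smallest that 4 against 4 sheep can give, and its adjusted p was 0.277 over 18 shares. Sheep 255 and 233 were the lowest of the 8 both for this share and for the let-7 share, and the part of lymphocyte RNA in the let-7 values was not tested.

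MIR133, a microRNA of striated muscle, had a difference of -0.86 (SE 0.37, limma adjusted p = 0.322), but the sign depended on the depot. It was -0.75 in subcutaneous, -1.38 in visceral and -1.95 in perirenal fat, and 0.65 in epicardial fat, where sheep 48 and 185 reached 15553 and 8321 normalised reads of MIR133 and controls 663 to 3887. On reads summed over the depots of a sheep, where depots with more reads weigh more, edgeR gave 0.83 and DESeq2 0.82. MIR143, the tested microRNA of smooth muscle, held 4.92% ± 1.89 of microRNA reads in control and 7.55% ± 3.14 in prenatal T sheep (SD, n = 4 each; exact permutation p = 0.2, adjusted p = 0.277). The difference of 2.63 percentage points was 1.18 without sheep 255. Epithelial and mesothelial MIR200A, MIR200B and MIR200C differed by 0.62, 0.04 and -0.57 (SE 0.38, 0.47 and 0.31). Together they held at most 0.0408% of the microRNA reads of a library.

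None of the 18 shares passed an adjusted p under 0.05 (exact permutation tests, smallest adjusted p 0.277), and 1 of 18, that of MIR150, had an unadjusted p under 0.05. MicroRNAs held 85.9% ± 1.01 of all reads in control and 87.8% ± 2.14 in prenatal T sheep (SD, n = 4 each; exact permutation p = 0.143). The difference of 1.85 percentage points was 0.824 without sheep 255. snRNAs held 0.267% ± 0.0972 and 0.169% ± 0.0291 (SD, n = 4 each; exact permutation p = 0.0571). Control sheep 132, with 0.405%, was the highest, and the groups overlapped. Its perirenal library held 0.927% snRNA reads, where the 7 other perirenal libraries held 0.0671% to 0.353%. Without that library, an alternative chosen after seeing the data, the difference of -0.0986 percentage points was -0.0503 (exact permutation p = 0.0571). Scaling to equal reads over the 4 classes shifted the median difference to 0.39 for microRNAs, -0.42 for snoRNAs, -0.53 for snRNAs and -0.34 for lncRNAs, and differences are given here on the deposited scale, on which each class is centred separately.

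Among snoRNAs, 6 of 169 reached an unadjusted p under 0.05 (3.55%), 4 higher (2.37%) and 2 lower (1.18%), and 0 were called. LOC114115071, in MATR3, a gene of a nuclear matrix protein, differed by 0.89 (SE 0.27, limma adjusted p = 0.807). Its centred values were -0.48, -0.72, -0.36 and -0.22 in control sheep 098, 131, 132 and 201, and 0.14, 0.68, 0.06 and 0.89 in prenatal T sheep 48, 185, 233 and 255. The groups did not overlap. LOC114113388, in NCL, the gene of nucleolin, had 1.08 (SE 0.38), LOC114118590, in EIF4G2, a translation initiation gene, -0.75 (SE 0.26), and LOC114113420 -0.95 (SE 0.36), each with overlapping groups and a limma adjusted p of 0.807. Levels of these snoRNAs were low: LOC114115071 had sheep means of 4.33 to 6.54 normalised reads in controls and 6.40 to 12.2 in prenatal T.

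Among snRNAs 1 of 34 reached an unadjusted p under 0.05 (2.94%). LOC114115462 differed by 0.45 (SE 0.21, limma adjusted p = 0.999), yet its sheep values ran from -0.96 to 0.77 in controls and from -0.54 to 1.12 in prenatal T and overlapped widely. Its own SD was 0.72 in control and 0.75 in prenatal T sheep. The SE of 0.21 was that of the other snRNAs named, since limma draws the spread of a feature toward its class. LOC114115462 passed the adjusted threshold when control sheep 132 or prenatal T sheep 233 was left out. These limma results therefore do not measure its own spread between animals. On the scale of equal reads over the 4 classes its difference was -0.07. LOC114111383, LOC114111385 and LOC114111387 differed by 0.25, 0.24 and 0.24 (SE 0.21 each). LOC114111385 and LOC114111387 carried the same values, so they are 1 measurement listed under both names. Values of LOC114111383 were nearly the same as these in each sheep, so reads of these copies cannot be assigned to 1 of them. All 3 turned to -0.28, -0.29 and -0.29 on the scale of equal reads over the 4 classes.

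Among lncRNAs 12 of 158 reached an unadjusted p under 0.05 (7.59%), 9 higher (5.7%) and 3 lower (1.9%), with 0 called. Among all 158 lncRNAs the groups did not overlap for 6 (3.8%). LOC114115026 differed by 1.22 (SE 0.32, limma adjusted p = 0.354). Its centred values were -0.97, -0.86, -0.04 and -0.56 in control sheep 098, 131, 132 and 201, and 0.49, 0.50, 0.11 and 1.33 in prenatal T sheep 48, 185, 233 and 255, without overlap. In epicardial fat LOC114115026 was at 0 to 0.8 normalised reads in controls and 1.3 to 9.5 in prenatal T sheep, and in perirenal fat at 4.6 to 50.9 and 37.4 to 91.3. LOC114115026 was called when visceral fat was left out.

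LOC114113974 differed by -0.96 (SE 0.29, limma adjusted p = 0.354). In centred values it stood at 0.62, 0.84, -0.34 and 0.79 in control sheep 098, 131, 132 and 201, and -0.28, -0.46, -0.67 and -0.51 in prenatal T sheep 48, 185, 233 and 255. Only control sheep 132 reached the prenatal T range, and the difference lay between -0.81 and -1.13 in the 4 depots. LOC105609364 differed by -0.76 (SE 0.25, limma adjusted p = 0.374), with prenatal T sheep from -0.91 to -0.01 below the controls from 0.14 to 0.65. LOC105602212, a transcript that overlaps MIR125B, differed by 0.97 (SE 0.29, limma adjusted p = 0.354), opposite in sign to MIR125B at -0.69 (-0.28 without sheep 255). Reads of the transcript and of the microRNA in it were counted in separate tables, and the labels do not state whether the counting used strand.

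An average over depots can hide depots that move in opposite ways, so the difference of the treatment effect between depots was tested within sheep. With limma, 0 of 441 features were called (smallest adjusted p 0.447), and 26 reached an unadjusted p under 0.05 (5.9%), of which 16 were snoRNAs (9.47%), 8 lncRNAs (5.06%), 1 a microRNA (1.25%) and 1 an snRNA (2.94%). The microRNA was MIR495. The smallest p belonged to the lncRNA LOC105616014, in ANXA13, with -0.05 in subcutaneous, -0.94 in visceral, 1.70 in epicardial and 0.14 in perirenal fat (limma adjusted p = 0.525). LOC105611754 had -2.09 in visceral and 0.78 in epicardial fat (limma adjusted p = 0.525). The snoRNA LOC114117662 had -1.05 in visceral fat and -0.40 to 0.06 in the other depots (limma adjusted p = 0.447).

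The remaining member of those 4, LOC114109215, is 1 of the snoRNAs in LOC105606646. Its differences were -0.38 in subcutaneous, 2.08 in visceral, -1.17 in epicardial and 1.18 in perirenal fat (limma adjusted p = 0.447). In visceral fat LOC114109215 stood at 10.1, 5.5, 3.2 and 28.8 normalised reads in control sheep 098, 131, 132 and 201, and at 30.7, 24.8, 106.1 and 32.5 in prenatal T sheep 48, 185, 233 and 255, with no overlap. In epicardial fat it stood at 117, 48.0, 209 and 376 and at 199, 30.8, 146 and 18.2, with overlap. Of the 8 tested snoRNAs of this gene, 3 reached an unadjusted p under 0.05 for a difference between depots, the other two being LOC114109206 and LOC114109205, named after their values were seen, which had 1.44 and 1.51 in visceral and -0.67 and -1.06 in epicardial fat. Among all 169 snoRNAs 16 did so (9.47%). In the averaged fit, 5 microRNAs of the same region had an unadjusted limma p under 0.05. Of these, MIR369, MIR411A, MIR379 and MIR3959 had differences above 0 in each depot, while MIR495 had -0.30 in subcutaneous fat. The median over the 30 tested microRNAs of the cluster was -0.02 in subcutaneous, 0.26 in visceral, -0.07 in epicardial and 0.59 in perirenal fat.

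**Figure D5:**
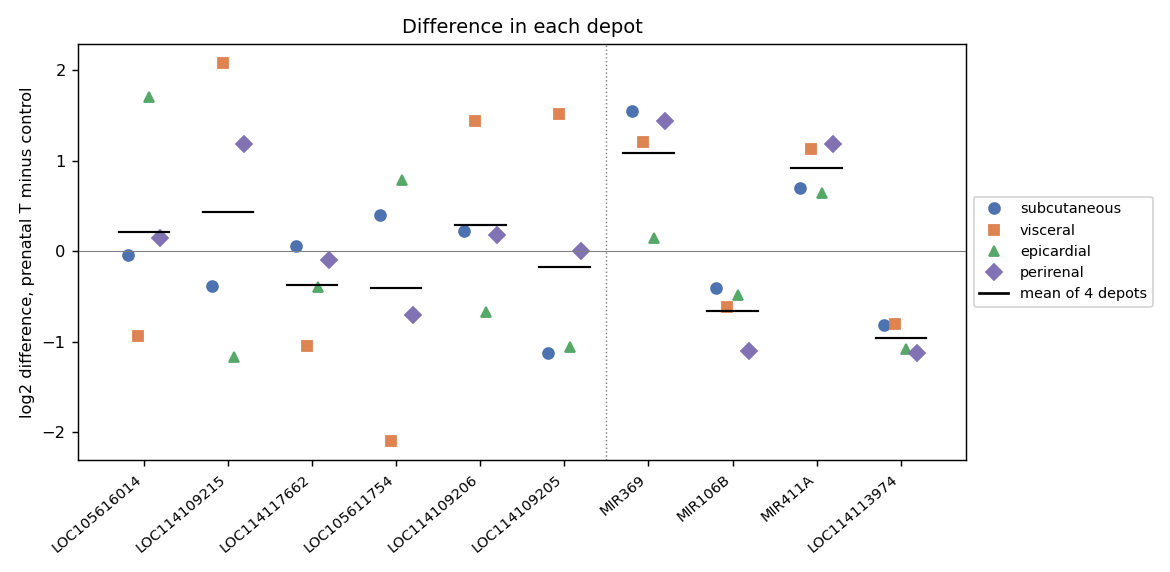
Difference between prenatal T and control sheep in each depot (y axis, log2; 4 and 4 sheep per point) and their mean (black line). Left of the dotted line are the 4 features with the smallest p for a difference between depots and 2 further snoRNAs of LOC105606646. Their visceral and epicardial points lie on opposite sides of 0, except for LOC114117662 (-1.05 and -0.40). Right of the line are 4 features with the same sign in every depot.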

How the data were processed

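Libraries from 4 fat depots of 8 sheep were made with the NEBNext small RNA kit, per the labels' protocols. The submitters' processing notes name cutadapt 3.2, STAR 2.6.0c and featureCounts 1.6.1. Their genome build, and whether reads were counted by strand, are not stated there. What the authors deposited is a normalised signal per feature, and each library's values are its reads over 1 size factor per depot and RNA class. Recovered factors equalled median-of-ratios factors within depot and class (SD of the log2 ratio 0). The factor of each library was searched until all its values were whole reads (tolerance 1e-05 of the value and 0.01 read). That 100% of values came out whole is therefore no separate check. A whole multiple of a library's reads would also leave the factors matching. Gene names inside which features lie came from the RefSeq annotation of ARS-UI_Ramb_v3.0, in which 105 of 105 microRNAs, 621 of 694 snoRNAs, 1010 of 1148 snRNAs and 1372 of 2973 lncRNAs matched. No coordinates are given, since the builds may differ.

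Features whose deposited values averaged 5 or more in the cohort's 32 libraries were tested with limma 3.58.1 (R 4.3.3, trend with the mean) on log2(value + 1) averaged per sheep, in 1 fit per class, with Benjamini-Hochberg adjustment within the class and a threshold of 0.05. Differences on this scale understate changes of low features. The difference between depots was an F test of treatment by depot with sheep as fixed terms. Shares of recovered reads were compared by exact two-sided permutation over sheep (scipy 1.17.1; 70 placements). edgeR 4.0.16 and DESeq2 1.42.0 on reads summed per sheep were alternatives, with other pseudocounts, minimum values and scalings, terms for library number, and each sheep and depot left out. Pairing of a sheep's depots comes from the labels. The fits were tested on simulated data.

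The features named are the 10 microRNAs and 4 of each other class with the smallest p, the 3 most abundant tested members of each list, and the 4 with the smallest p between depots. Others are marked as chosen after their values were seen. Exceptions outside this rule, not marked in place, are LOC105606646, MIRLET7D, MIRLET7F, MIRLET7G, MIRLET7I, MIR29B-1, MIR29B-2 and MIR218A. The comparison, the members and the lists were chosen with earlier results of these data known. Endothelial microRNAs were on a list, but 0 of the 2 symbols listed were among the deposited features.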

Additional observations from a re-analysis of the deposited data

Results flagged for a closer look

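Among 130 groups of 4 sheep (named features and shares), 3 held a sheep whose gap to the nearest other exceeded Dixon's 95% limit; chance gives about 1 in 20. MIR3959 was at -1.83 in control sheep 098, with the 3 other controls from -0.21 to 0.05. MIR103 was at 0.104 in prenatal T sheep 233, with the 3 others from -0.12 to -0.10. The share of microRNA reads held by matrix and fibrosis microRNAs, centred on the depot, was 0.244 percentage points in control sheep 132 and -1.47 to -1.18 in the 3 other controls.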

How the results depend on the processing

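The count of called features was 0 under most alternatives. It was 1 with no minimum value (LOC105602212), 9 with DESeq2, 1 with visceral fat left out (LOC114115026), and 0 to 1 with each sheep left out, the 1 being LOC114115462 without control sheep 132 or prenatal T sheep 233. At an unadjusted p under 0.05 the count ran from 10 (without epicardial fat) to 75 (without visceral fat) among fits with the minimum value of 5, and was 17 with the number of later libraries as a covariate, 57 without prenatal T sheep 48 and 56 without control sheep 132. With sheep as a replicate block over the 32 libraries, 0 were called and 49 had an unadjusted p under 0.05, and the block changed no other call; for the difference between depots, fitted within sheep, the count was 0 with and without the replicate block and under each other alternative. No share was called under any alternative tested. With a sheep left out no share could be, because 3 against 4 sheep give no exact two-sided permutation p below 0.0571.

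For 47 named features, 1240 of 1296 values under 28 alternatives kept their direction, and 56 in 20 features did not; the cause was not tested. Scaled per class, MIR26A, MIR29A and MIR103 were at 0.21, 0.29 and 0.20, and scaled over the 4 classes at 0.24, 0.32 and 0.23, with MIR221 at 0.029, LOC114115462 at -0.075, LOC114111383 at -0.28, LOC114111385 and LOC114111387 at -0.29 and LOC105616014 at -0.11. With edgeR MIR133, MIR27A, MIR10A and LOC114109215 were at 0.83, -0.046, -0.068 and -0.38, and with DESeq2 at 0.82, -0.067, -0.092 and -0.42. Among early libraries MIR10B, MIR10A, MIR200B and LOC105616014 were at -0.033, -0.15, -0.19 and -0.21. Among later ones MIR133, MIR181A-2, MIR181A-1, MIR29A, MIR103 and LOC105616014 were at 0.49, 0.092, 0.10, 0.059, 0.048 and -0.26. MIR200B was at -0.37 with the covariate and -0.054 with a library set term, where LOC105616014 was at -0.00096. Without subcutaneous fat MIR29A was at 0.0015; without visceral fat MIR103, MIR127, LOC114109215 and LOC105611754 were at 0.0053, -0.12, -0.12 and 0.16; without epicardial fat MIR27A, MIR200B and LOC105616014 were at -0.00097, -0.066 and -0.28; without perirenal fat MIR29A and MIR127 were at 0.035 and -0.079. Without only the perirenal library of sheep 255, chosen after seeing the data, MIR29A, MIR127 and MIR200B were at 0.037, -0.071 and -0.10. With each sheep left out in turn the ranges were MIR29A -0.086 to 0.024, MIR127 -0.11 to 0.17, MIR493 -0.057 to 0.30, MIR200B -0.26 to 0.52, LOC114109215 -0.024 to 0.97 and the androgen-regulated share (percentage points) -0.270 to 0.174. The striated muscle share differed by -0.545 on the log2 scale and by -0.0497 percentage points among early libraries, and the androgen-regulated share by 0.127 among early libraries. The shares among early libraries were examined after seeing the data.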
